A study of Mus musculus with 6 samples.

Results

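The genes described here are 39 genes of smooth muscle contraction and of pericytes, out of the 36163 gene names on the array, and they were chosen by name: every non-control probe that carries one of these symbols was taken, which gave 65 of 55681 probes. They fall into 22 genes whose expression is largely restricted to muscle, 14 relatives and regulators that most cells express, and 3 genes used as pericyte markers. Both populations came from the prostates of untreated 6-day-old male FVB/N mice carrying the Tg 11.5kb-GFP transgene, in which the 11.5 kb s-SHIP promoter drives GFP. LSC cells are cells without the blood and endothelial lineage antigens Ter119, CD45 and CD31 that carry Sca-1 and CD49f on their surface, and they were sorted into LSC GFP+ and LSC GFP- cells. Each population gave 3 independent samples, 1 array each, and nothing states how many animals each sample pooled or that the samples came from separate sorts, so the p values measure the spread between these samples, which may be partly technical. Per the study's description, vessel-associated smooth muscle cells in this line also carry GFP, more brightly than the epithelium, but little or none of the Sca-1 and CD49f used in the sort. The study also reports that the isolated LSC population held only cells with an epithelial surface marker. Whether smooth muscle cells remained in either sorted population was not tested.

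Smooth muscle cells contract when calcium, through calmodulin, activates the myosin light chain kinase encoded by Mylk, which phosphorylates the regulatory light chain and lets smooth muscle myosin pull on actin filaments. Myosin phosphatase reverses the step. Most genes of this machinery are switched on by serum response factor (Srf) with myocardin (Myocd) or the related cofactors Mkl1 and Mkl2, at a DNA element called the CArG box. Pericytes are the mural cells of capillaries and share part of this program with vascular smooth muscle, and a developing prostate is wrapped in a layer of smooth muscle outside the epithelial ducts.

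Signals are given as log2 of the scanner's processed signal minus the array's 75th percentile, so 0 is the 75th percentile of that array, and values of different probes are not set against each other. The test was run on the 36993 probes that the scanner software marked as well above background throughout at least 1 population (3 of 3 arrays). A gene is represented by its brightest tested probe, differences are LSC GFP+ minus LSC GFP- on the log2 scale with their standard error, and a gene is called when the unadjusted p of limma's moderated test was under 0.05. Adjusted p values are Benjamini-Hochberg values over all 36993 probes. Between 36657 and 42127 probes per array were well above background, the correlation of array pairs across probes lay between 0.961 and 0.985, and the 10 basal and 8 luminal markers examined, Krt5 and Krt8 among them, all passed the filter.

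Most of the tested muscle-restricted genes were lower in LSC GFP+ cells, and most of the broadly expressed relatives lay near 0. Of the 22 muscle-restricted genes, 18 were tested and 13 of these were called lower and 0 higher in LSC GFP+ cells. The median log2 difference over the 18 was -1.31. Across the array 4.53% of tested probes were called lower and 3.38% higher, and the median log2 difference was -0.0043. All 14 broadly expressed genes were tested, of which 1 was called lower and 1 higher, and their median was -0.094. Of the 3 pericyte genes 1 was called lower. In limma's moderated test 15 members were called lower and 1 higher, and none passed an adjusted p of 0.05, the lowest being 0.128, and across the array 0.0027% of probes did. For the same 13 muscle-restricted genes all 3 LSC GFP+ arrays lay below all 3 LSC GFP- arrays, which 5.65% of tested probes showed, while the opposite order, shown by 6.61% of probes, was seen for 0 of the 18. Among the 14 broadly expressed genes, Cald1 and Actn1 lay wholly below and Fhl2 and Srf wholly above in LSC GFP+ cells. The counts describe the members that passed the filter, and the filter favours a difference in a gene that passed through its brighter population alone. Of the 18 only Ppp1r14a was not above background throughout, the other 17 being well above background on all 6 arrays. In sorted bulk samples a lower signal can come from fewer cells of a type or from less RNA per cell, and the arrays cannot tell these apart.

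**Figure D1:**
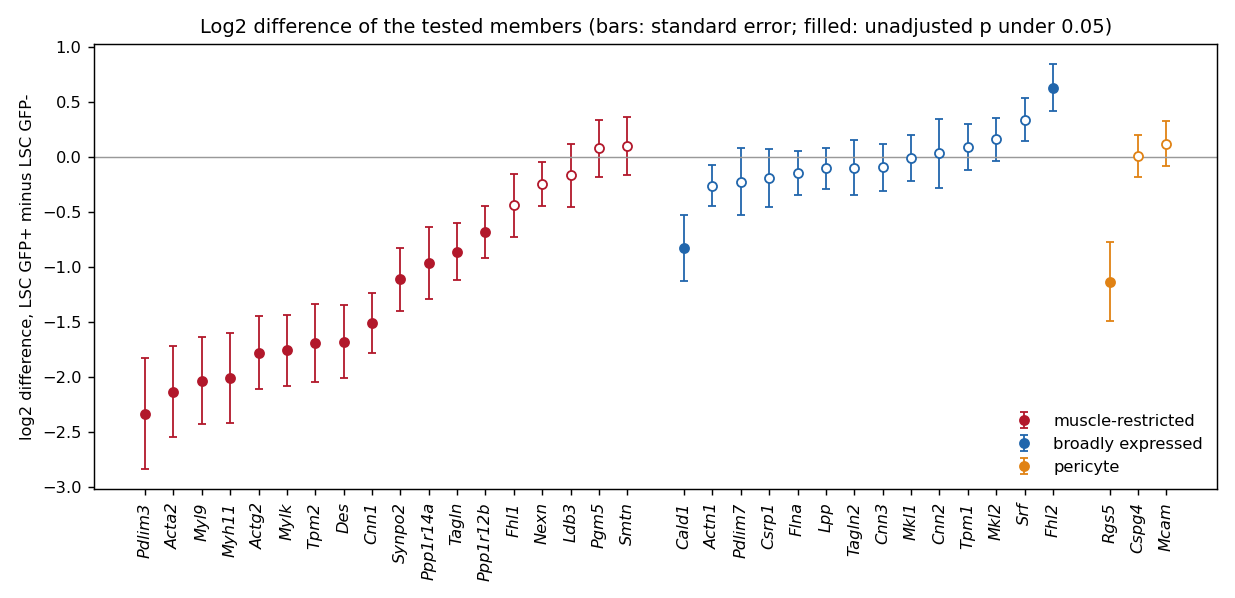
Log2 difference of each tested member, LSC GFP+ minus LSC GFP- (y axis), with its standard error (bars, n = 3 arrays per population); filled points have an unadjusted p under 0.05. The muscle-restricted genes reach down to -2.34 for Pdlim3, the broadly expressed genes lie near 0 apart from Cald1 at -0.82 and Fhl2 at 0.63, and among the pericyte genes Rgs5 stands at -1.13.

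The thin filament genes fell together. Acta2, the alpha smooth muscle actin, read 1.28, 0.30 and 1.52 in the LSC GFP+ samples and 3.86, 2.55 and 3.08 in the LSC GFP- samples, in the order of replicates 1 to 3, which is kept below. Its probe lies on the minus strand at chr19:34316060-34316119 (mm9, as the array design gives it). The populations did not overlap, with LSC GFP- replicate 1 highest and LSC GFP+ replicate 2 lowest. The difference was -2.13 ± 0.42 (SE, n = 3 per population), a 4.39-fold lower signal, with an adjusted p of 0.14 in limma's moderated test. Actg2, the gamma actin of visceral smooth muscle, read -1.11, -1.88 and -0.88 in LSC GFP+ cells against 0.98, 0.15 and 0.34 in LSC GFP- cells, a difference of -1.78 ± 0.33 (adjusted p = 0.129). The same 2 arrays gave its extremes. Tpm2, a tropomyosin that lies along the actin filament, read 2.55, 1.72 and 2.63 against 4.62, 3.53 and 3.81, and its difference was -1.69 ± 0.36 (adjusted p = 0.168). A second, dimmer Tpm2 probe differed by -2.12. Cnn1, the smooth muscle calponin, which binds actin and slows the myosin motor, read -0.28, -0.63 and -0.15 against 1.63, 0.73 and 1.13, a 2.85-fold lower signal (-1.51 ± 0.27, adjusted p = 0.128). Tagln, the transgelin or SM22 that bundles actin and is an early smooth muscle marker, moved less: it read 2.13, 1.47 and 1.93 against 3.00, 2.36 and 2.75, a difference of -0.86 ± 0.26 (1.81-fold lower, adjusted p = 0.351). Its differences within replicate numbers were -0.87, -0.89 and -0.82, so the size of the step was nearly the same in each.

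The motor and the enzymes that switch it followed. Myh11, the myosin heavy chain of smooth muscle, read 0.84, 0.24 and 0.19 on the LSC GFP+ arrays and 3.25, 2.46 and 1.61 on the LSC GFP- arrays. The LSC GFP- arrays spread more, yet the lowest of them was above the highest LSC GFP+ array, and the difference was -2.01 ± 0.41 (4.03-fold lower, adjusted p = 0.151). The Myh11 probe lies at chr16:14202190-14202249 and that of Myl9 at chr2:156607301-156607360 (mm9). Myl9, the regulatory light chain that is phosphorylated to start contraction, read 1.54, 0.56 and 1.68 against 3.93, 2.73 and 3.22, a 4.09-fold lower signal (-2.03 ± 0.39, adjusted p = 0.139). Mylk, the kinase for that chain, read -0.74, -1.02 and -0.64 against 1.60, 0.36 and 0.92 (-1.76 ± 0.32, adjusted p = 0.128). Kinase and substrate were thus both lower, without overlap between the populations. Ppp1r12b, a targeting subunit of myosin phosphatase, read -0.29, -0.87 and -0.63 against 0.34, 0.07 and -0.16, a difference of -0.68 ± 0.23 (adjusted p = 0.453). Its 2 dimmer probes differed by -0.32 and -0.38 and were not called, and the call of the brightest was lost without LSC GFP- replicate 1 (-0.55) or without LSC GFP+ replicate 2 (-0.55). Ppp1r14a, the phosphatase inhibitor CPI-17, read -4.24, -4.12 and -4.30 against -2.50, -3.52 and -3.74, and 2 of its 3 LSC GFP+ signals were well above background. Its difference of -0.96 ± 0.33 (adjusted p = 0.441) shrank to -0.33 under normexp background correction and was then not called. The methods' t-test did not call Ppp1r14a either.

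Among the proteins that anchor and link the filaments, Des, the intermediate filament desmin, read -3.01, -3.32 and -2.33 in LSC GFP+ cells against -0.71, -1.65 and -1.27 in LSC GFP- cells (-1.68 ± 0.33, adjusted p = 0.145). Pdlim3, an actinin-binding PDZ-LIM protein of muscle, showed the largest difference of the members: it read -0.26, -2.09 and -0.93 against 1.74, 0.47 and 1.53, which is -2.34 ± 0.50 or 5.05-fold lower (adjusted p = 0.175). The LSC GFP+ replicates of Pdlim3 were also the most scattered of the 13 called genes, with an SD of 0.93. Synpo2, a synaptopodin-like actin bundler of Z-discs and dense bodies, read -0.81, -0.72 and -0.08 against 1.01, 0.42 and 0.28, with a difference of -1.11 ± 0.29 (adjusted p = 0.261). Its other 2 probes were also called lower, by -1.28 and -0.64.

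The remaining 5 tested muscle-restricted genes overlapped between the populations and were not called. Fhl1, a LIM-only protein of muscle, differed by -0.44 ± 0.29 and was lower within each of the 3 replicate numbers, by -0.70, -0.41 and -0.20. With the replicate number as a block it was called (unadjusted p = 0.0393 in limma's moderated test), as were 8.06% of tested probes in the lower and 6.74% in the higher direction. Nexn, an actin-binding Z-disc protein, differed by -0.24 ± 0.20. Pgm5, a phosphoglucomutase relative found at adherens-type junctions of muscle, differed by 0.080 ± 0.26 and its 2 other probes by 0.0098 and 0.094. Smtn, smoothelin, a marker of contractile smooth muscle, differed by 0.10 ± 0.27, and its dimmer probe by 0.29 with no overlap and the LSC GFP+ arrays above. Ldb3, a PDZ-LIM protein of the Z-disc, differed by -0.17 ± 0.29 at its brightest probe. A second Ldb3 probe read -3.78, -3.39 and -3.91 in LSC GFP+ cells and was not well above background on any LSC GFP- array, which makes it at least 1.75-fold higher in LSC GFP+ cells (adjusted p = 0.106 in limma's moderated test). That bound takes for each LSC GFP- array the higher of the probe's own signal and the lowest signal among probes well above background. The probe passed the filter through LSC GFP+ cells alone.

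No difference was tested for 4 muscle-restricted genes. Lmod1, leiomodin, which nucleates actin filaments, and Kcnmb1, a subunit of the calcium-activated potassium channel that limits tone, were not well above background on any of the 6 arrays. Pln, phospholamban, the brake on the calcium pump, was well above background on 1 LSC GFP+ array. Myocd, the cofactor that drives the smooth muscle program, read -5.09, -5.57 and -4.32 on the LSC GFP+ arrays and -4.24, -4.11 and -5.22 on the LSC GFP- arrays. It was well above background on 1 LSC GFP- array, and the populations overlapped.

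**Figure D2:**
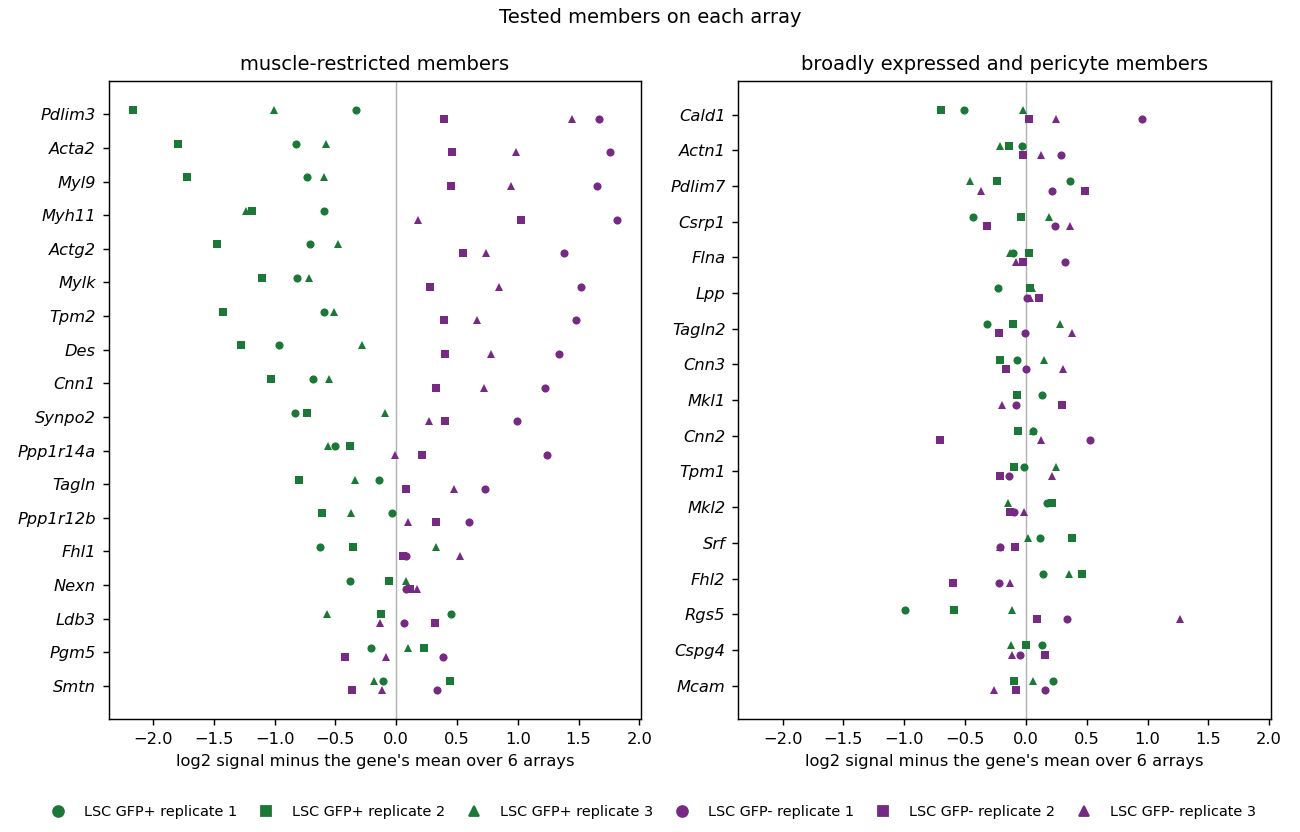
Signal of each tested member on each of the 6 arrays, as log2 minus that gene's mean over the 6 arrays (x axis); green marks are LSC GFP+, purple marks LSC GFP-, and the marker shape gives the replicate number. For the 13 called muscle-restricted genes every purple mark lies to the right of every green one, with LSC GFP- replicate 1 rightmost in all 13, while most broadly expressed genes mix both colours around 0.

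The 13 called genes shared their highest array, while the order of the other arrays varied. LSC GFP- replicate 1 was the highest array for all 13, and LSC GFP+ replicate 2 the lowest for 10, LSC GFP+ replicate 3 for 2 (Myh11 and Ppp1r14a) and LSC GFP+ replicate 1 for 1 (Synpo2). The mean of the 13 genes was -0.18, -0.80 and -0.15 in LSC GFP+ cells and 1.75, 0.82 and 1.04 in LSC GFP- cells. The SD of these means was 0.36 over the LSC GFP+ and 0.49 over the LSC GFP- arrays, and the differences within replicate numbers were -1.94, -1.62 and -1.19. The step was largest in replicate 1 for 10 of the genes and smallest in replicate 3 for 11. The mean of the 14 broadly expressed genes stayed between 1.83 and 2.07 on the 6 arrays. The mean of the 5 uncalled muscle-restricted genes stayed between -1.09 and -0.73. These groups were separated by their call. The step in the mean of the 13 and the flatter mean of the 5 therefore follow from that selection.

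Several restricted genes have a broadly expressed relative from the same family, and the values of the calponin, transgelin and PDZ-LIM relatives lay nearer 0. The calponins Cnn2 and Cnn3, which bind actin in non-muscle cells, differed by 0.034 ± 0.31 and -0.091 ± 0.21, beside -1.51 for Cnn1. The spread of Cnn2 came from the LSC GFP- arrays, which read 3.12, 1.88 and 2.72, while the LSC GFP+ arrays read 2.64, 2.53 and 2.65. The transgelin Tagln2 differed by -0.097 ± 0.25, beside -0.86 for Tagln. The PDZ-LIM protein Pdlim7 differed by -0.22 ± 0.31, beside -2.34 for Pdlim3. The cytoplasmic actins Actb and Actg1, which are not among the 39 genes, differed by 0.039 and 0.11, beside -2.13 for Acta2 and -1.78 for Actg2. Whether these pairs differ from each other was not tested, because each value comes from a different probe. Fhl2, the LIM-only relative of Fhl1, was the 1 member called higher: it read 0.80, 1.12 and 1.01 in LSC GFP+ cells against 0.44, 0.06 and 0.53 in LSC GFP- cells (0.63 ± 0.21, adjusted p = 0.43). Its call was lost without LSC GFP+ replicate 2 (0.56) or LSC GFP- replicate 2 (0.49).

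Tropomyosin 1 depended on the probe. Its 2 brightest probes differed by 0.089 and -0.17 and the next by -0.13, with overlap. The 2 dimmest read 1.38, 1.18 and 1.31 against 1.97, 1.86 and 1.84, and 0.78, 0.70 and 0.89 against 1.29, 1.22 and 1.29. These were called lower by -0.60 and -0.48 (adjusted p = 0.35 and 0.514), without overlap. Tpm1 is spliced into muscle and non-muscle forms, and which forms each probe reads was not examined here. Cald1, caldesmon, likewise has a muscle form, and it was the 1 broadly expressed gene called lower: it read -1.15, -1.34 and -0.67 against 0.32, -0.61 and -0.39 (-0.82 ± 0.30, adjusted p = 0.493). Its dimmer probe differed by -0.88, with overlap. The call of the brightest probe was lost under normexp correction (-0.55), under the methods' t-test, and when replicate 1 of LSC GFP+ (-0.77) or of LSC GFP- (-0.55) or replicate 2 of LSC GFP+ (-0.68) was left out. The crosslinker Actn1 read 0.50, 0.39 and 0.31 against 0.82, 0.50 and 0.65. Its populations did not overlap and the difference of -0.26 ± 0.19 was not called. Flna, the filamin that crosslinks actin into networks, differed by -0.14, Csrp1, a LIM protein of stress fibres, by -0.19, and Lpp, a focal adhesion LIM protein, by -0.099, each with overlap and an adjusted p of 0.996.

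**Figure D3:**
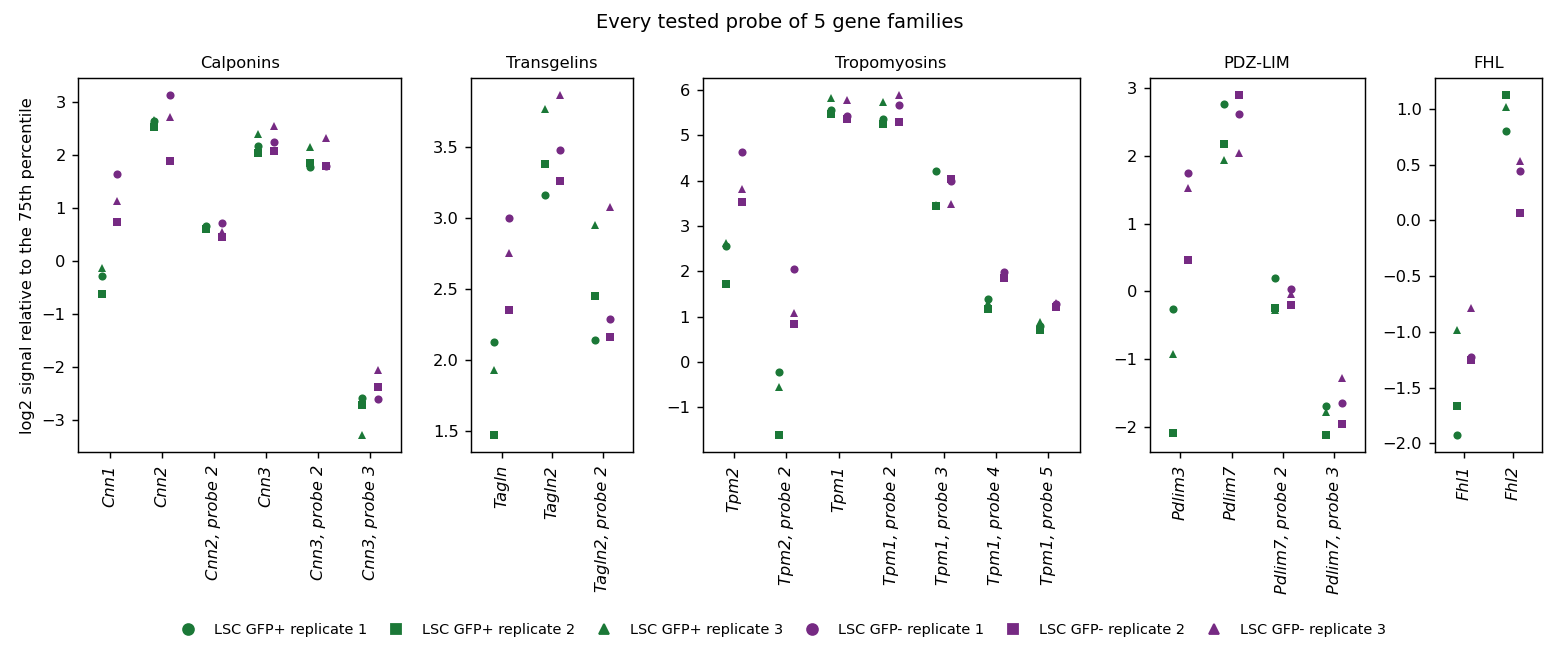
Signal of every tested probe of 5 gene families (y axis, log2 relative to the array's 75th percentile; each panel has its own scale), green for LSC GFP+ and purple for LSC GFP- arrays, with the marker shape giving the replicate number. Colours are to be compared within a column only, since levels of different probes are not comparable. In Cnn1, Tagln, both Tpm2 probes and Pdlim3 all green marks lie below all purple marks, and in most probes of Cnn2, Cnn3, Tagln2, Tpm1 and Pdlim7 they mix.

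None of the tested regulators of the program, Srf, Mkl1 and Mkl2, was called lower, and Myocd was too dim to be tested. Srf, which binds the CArG box, read 3.60, 3.87 and 3.50 in LSC GFP+ cells against 3.27, 3.39 and 3.27 in LSC GFP- cells. The LSC GFP+ arrays were all higher, the difference of 0.34 ± 0.19 was not called (unadjusted p = 0.114 in limma's moderated test), and a dimmer Srf probe, at -1.89, -1.68 and -2.02 against -2.41, -2.43 and -2.48, was called higher by 0.58 (adjusted p = 0.411). Mkl1 differed by -0.012 ± 0.21 and Mkl2 by 0.16 ± 0.19, with overlap. The other class of genes controlled through Srf, the immediate-early genes, pointed the other way from the contractile genes. Of the 6 in the list, Egr1, Egr2, Fosb and Junb were called higher in LSC GFP+ cells, by 0.66, 1.0, 0.69 and 0.56. Their adjusted p values in limma's moderated test ran from 0.211 to 0.487, and 3.38% of tested probes were called higher across the array. Fos and Ier2 differed by 0.61 and 0.51 without overlap, an order that 6.61% of probes showed, and were not called. With the replicate number as a block both were called (unadjusted p = 0.0207 and 0.0427 in limma's moderated test), as were 6.74% of tested probes in the higher direction.

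Promoter sequences are shown because Srf switches on most genes of the contractile machinery, as described above. The stretches place contractile and non-contractile members side by side. Whether Srf controls the 39 genes in these cells was not tested. The CArG box, CC followed by 6 A or T and then GG, reads the same on both strands, so 1 search covers both. It was searched in the 250 bases before each start of the RefSeq promoter table (GRCm38.p6), which matched 34 of the 39 genes. Actg2, Myh11, Myocd, Nexn and Tagln had no match. A box stood before at least 1 start of Cnn2, Fhl1, Fhl2, Ldb3, Myl9 and Srf, 17.6% of the 34, beside 1.62% of the 27025 genes in the table. With at most 1 G or C allowed among the 6 inner bases, a variant chosen after the sequences were seen, Acta2, Mkl1 and Pdlim3 joined them, 26.5% beside 9.78%. The stretches below carry 30 bases on each side of the boxes where the start allowed, on the strand of the gene, 5′ to 3′, with the boxes in capitals. They are for Myl9 chr2:156775273-156775404 (plus strand), Acta2 chr19:34255374-34255487 (minus strand), Cnn2 chr10:79988514-79988583 (plus strand), Srf chr17:46556185-46556274 (minus strand) and Fhl2 chr1:43196818-43196887 (minus strand).
Myl9: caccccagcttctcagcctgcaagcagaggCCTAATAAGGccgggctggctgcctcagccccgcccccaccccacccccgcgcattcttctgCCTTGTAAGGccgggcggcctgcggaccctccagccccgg
Acta2: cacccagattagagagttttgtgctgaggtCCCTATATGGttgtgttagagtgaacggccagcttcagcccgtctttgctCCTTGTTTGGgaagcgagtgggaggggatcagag
Cnn2: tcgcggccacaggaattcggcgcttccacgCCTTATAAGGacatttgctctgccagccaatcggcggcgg
Srf: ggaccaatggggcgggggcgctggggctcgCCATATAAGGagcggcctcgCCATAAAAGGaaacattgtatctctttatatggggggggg
Fhl2: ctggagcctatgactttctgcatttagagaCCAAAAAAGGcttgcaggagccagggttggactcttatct
In Myl9 a full box begins 161 bases before the start and one with a G in its core 99 bases before. In Acta2 both boxes have 1 G or C in the core and begin 84 and 34 bases before the start. The boxes begin 82 and 62 bases before the start in Srf, 56 in Cnn2 and 96 in the Fhl2 stretch. A full box also begins 31 bases before another start of Fhl2, whose stretch is not printed. The genes that hold the full box differed in direction: Myl9 was lower by -2.03, Fhl2 higher by 0.63, and Cnn2, Srf, Ldb3 and Fhl1 were not called at 0.034, 0.34, -0.17 and -0.44. A match is a description of letters and not of binding.

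Of the pericyte genes only Rgs5 was called. Rgs5, a regulator of G protein signalling enriched in mural cells, read -0.97, -0.56 and -0.09 in LSC GFP+ cells against 0.37, 0.12 and 1.30 in LSC GFP- cells, a difference of -1.13 ± 0.36 (2.20-fold lower, adjusted p = 0.386). Its highest array differed from that of the called muscle-restricted genes: LSC GFP- replicate 3 was highest and LSC GFP+ replicate 1 lowest. The methods' t-test did not call it. Cspg4, the NG2 proteoglycan of pericytes and glial progenitors, read -1.79, -1.92 and -2.04 against -1.97, -1.77 and -2.03, so the populations overlapped fully (0.0086 ± 0.19). Mcam, the adhesion molecule CD146, read 8.94, 8.62 and 8.77 against 8.88, 8.63 and 8.45 at its brightest probe, a difference of 0.12 ± 0.21. Its other probe differed by 0.14. The start of the brightest probe is shown because it runs into a TG repeat, and 43 of its 60 bases are G or T, so the gene behind its signal is uncertain.
Mcam probe, first 30 bases: gcaagagcttttgaggtgtgtgtgtgtgtg
Of 14 further pericyte genes, 11 were tested, and their median log2 difference was -0.0092. Across the array 4.53% of tested probes were called lower and 3.38% higher. Notch3, the receptor that maintains mural cells, and its target Heyl were called lower by -0.51 and -1.10, and Angpt1, a ligand secreted by mural and other mesenchymal cells, was called higher by 1.16. Pdgfrb, the receptor that recruits pericytes, differed by -1.15 ± 0.68 with overlap and was not called: it read -3.75, -3.69 and -4.07 against -0.87, -3.83 and -3.37, so LSC GFP- replicate 1 alone stood apart. Gja4 at -0.62 and Anpep, Art3, Cox4i2, Foxs1, Higd1b and Ndufa4l2, between -0.25 and 0.056, overlapped and were not called. Kcnj8 and Abcc9, the potassium channel subunits of mural cells, were not tested.

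**Figure D4:**
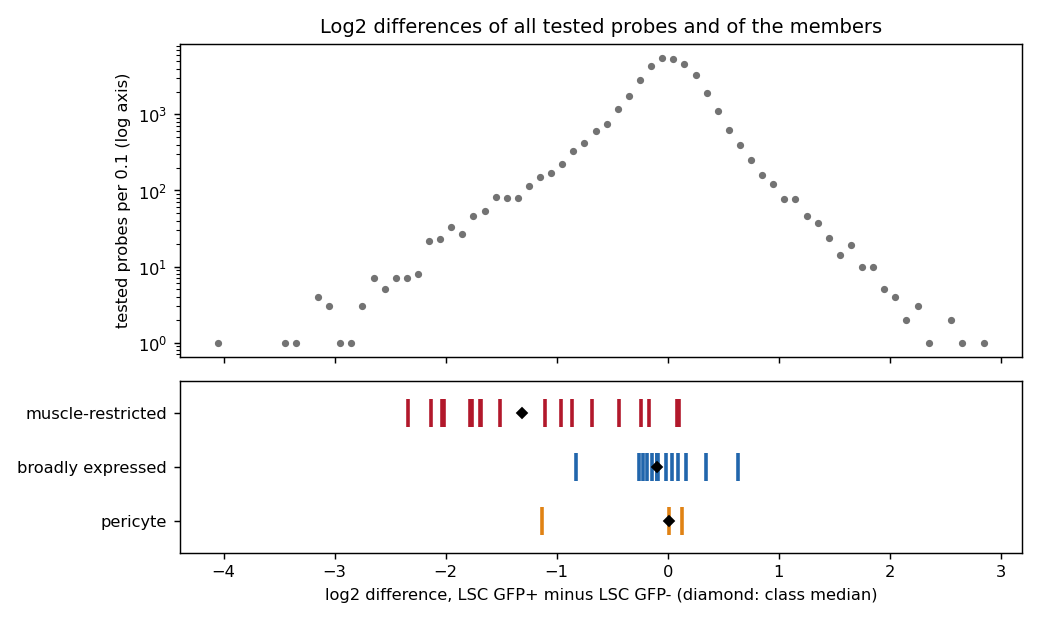
Number of tested probes in bins of 0.1 by log2 difference, LSC GFP+ minus LSC GFP- (upper panel, log axis), and the differences of the tested members by class, with a diamond at the class median (lower panel). The 18 muscle-restricted genes spread into the lower tail with a median of -1.31, while the 14 broadly expressed genes sit under the centre with a median of -0.094.

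Of 83 further genes of contractile signalling, calcium handling, adhesion plaques, receptors for contractile agonists and pericytes on the array, 65 were tested, 11 (16.9%) were called lower and 3 (4.62%) higher, beside 4.53% and 3.38% across the array. The share called higher was near that of the array. Of the 11, 4 (Ednra, Ednrb, Gucy1a3 and Ryr3) were near background in at least 1 LSC GFP+ sample and passed the filter through LSC GFP- cells alone. Among 16 genes of contractile signalling, shared mostly with other cells, 1 was called. This was Gucy1a3, a subunit of the nitric oxide receptor that relaxes smooth muscle, which read -1.25, -3.38 and -3.13 on the LSC GFP- arrays and was not well above background on any LSC GFP+ array, so it was at least 3.98-fold lower there (adjusted p = 0.178 in limma's moderated test). The small GTPase Rhoa differed by 0.14 and the ubiquitous light chain Myl6 by -0.25, with overlap. Among the receptors, the endothelin receptors Ednra and Ednrb were called lower, by -1.53 and -1.40, with signals well above background on 1 and 2 of the 3 LSC GFP+ arrays. The adrenergic receptor Adra1d was called lower by -0.66 and lost its call with the replicate block (unadjusted p = 0.0557 in limma's moderated test), while the angiotensin receptor Agtr1a was called higher by 0.58. Among 20 tested genes of adhesion plaques and the dystrophin complex, Itga1, the collagen-binding integrin of smooth muscle, was called lower by -1.28 and Cav1, caveolin of membrane pits, by -0.94. Of 10 tested genes of calcium handling, Cacna1d, a calcium channel, was called lower by -0.72 and Cacnb2, a calcium channel subunit, higher by 1.18. Ryr3, a calcium release channel, was called lower but not well above background on any LSC GFP+ array, so it was at least 2.01-fold lower there (adjusted p = 0.14 in limma's moderated test).

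Markers of other cell types moved beside the contractile genes. The shares to set beside their counts are 4.53% of tested probes called lower and 3.38% called higher across the array. Of 10 tested fibroblast markers 6 were called lower in LSC GFP+ cells, among them Col1a1 by -2.18, Col3a1 by -1.97 and Pdgfra by -2.36, and 2 higher, Dcn by 1.19 and Fbln1 by 0.90. The summed linear signal of the fibroblast list, in multiples of the 75th percentile, ranged from 24.9 to 31.7 on the LSC GFP+ arrays and from 24.6 to 63.7 on the LSC GFP- arrays. Such a sum follows the brightest probes of its list and does not give the amount of a cell type. The brightest was Dcn in the fibroblast list on the LSC GFP+ arrays. In the skeletal and basal lists it was Atp2a1 and Trp63, which were not called at 0.17 and 0.11. Striated muscle genes moved too. Of 13 tested skeletal muscle markers 5 were called lower, Acta1, Myh3, Myog, Tnni2 and Tnnt3, and of 7 tested cardiac markers 2, Actc1 by -2.62 and Tnnt2 by -2.08. Of the genes named here, Actc1 and Myh3 were well above background on 1 and Pdgfra on 2 of the 3 LSC GFP+ arrays, so they passed the filter through LSC GFP- cells alone. Acta1 and Actc1 are actins whose coding sequences closely resemble those of Acta2 and Actg2, so values of these 4 actins are uncertain where probes could share targets. The skeletal list summed to between 13.6 and 16.8 in LSC GFP+ and between 14.8 and 20.1 in LSC GFP- cells, with Myh2, Myh4, Mylpf, Pax7 and Ttn not well above background on any array. The cardiac list summed to between 1.25 and 2.01 and between 2.60 and 3.24. Of 10 tested basal markers 6 were called higher in LSC GFP+ cells, with sums between 230.7 and 248.4 against 172.9 and 183.3. Of 8 tested endothelial markers Vwf was called lower, and of 6 leukocyte and 4 glial markers 0 were called. Several fibroblast and striated muscle markers called lower shared the extreme arrays of most called muscle-restricted genes. Col1a1, Col1a2, Col3a1, Lum, Pdgfra, Acta1, Actc1 and Tnnt2 were highest on LSC GFP- replicate 1 and lowest on LSC GFP+ replicate 2. Tnni2 and Myog were also highest on LSC GFP- replicate 1 but lowest on other arrays. Mfap5, Myh3 and Tnnt3 were highest on LSC GFP- replicate 3. The endothelial markers Cldn5, Egfl7, Esam and Pecam1 were highest on LSC GFP- replicate 3, as Rgs5 was. Flt1 was lowest on that array, and Kdr, Tek and Vwf were highest on other arrays. The part of these shifts in the results for the contractile genes was not tested.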

How the data were processed

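Total RNA of 3 LSC GFP+ and 3 LSC GFP- samples was amplified and the cDNA labeled with Cy3, per the labels, and hybridised in 1 colour on 1 slide read in 1 scan. The deposited intensity values are the processed signals of Feature Extraction 11.0.1.1, per the file headers (the submitters' processing notes name 10.7.3.1), linear, background-subtracted and detrended, with a surrogate for dim spots and no scaling between arrays. The series table gives these signals rounded. For the values given here log2 signals were set relative to the 75th percentile of each array, outlier spots were left out and spots of a probe averaged. No probe spot was saturated. Of the probes passing the filter, 15 had only outlier spots on some array and were dropped.

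A two-sided moderated test (lmFit, eBayes; limma 3.58.1, R 4.3.3) compared the populations over 36993 probes, after a check on simulated data. The number of arrays limits the precision. Samples with the same replicate number deviated together (r = 0.43, 0.28 and 0.67 across probes for numbers 1, 2 and 3). Samples with different numbers gave r from -0.55 to 0.22, the highest of them near the value of number 2. The numbers in the labels were taken to pair the samples, but the main fit did not use the pairing. A replicate block was run as an alternative. The members and all lists were chosen with earlier results of these data known. The genes given in full were those called or without overlap, 11 genes kept whatever their values, and list members that were called, and others named from the lists were picked after their values were seen. Alternatives changed the background correction, scaling, filter, test, probe choice and arrays. Some called list members are not reported here.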

Additional observations from a re-analysis of the deposited data

How the results depend on the processing

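The members and their counts were recomputed under up to 17 alternatives, changed one at a time, and the other gene lists under the replicate block alone. Ppp1r14a had 16, since it did not pass the filter on all 6 arrays. Of the 16 called members, 11 kept their call and direction under all 17 (Acta2, Actg2, Cnn1, Des, Myh11, Mylk, Myl9, Synpo2, Tagln, Tpm2 and Pdlim3), and none changed sign. With the replicate block, which pairs the samples, the count of called probes rose from 2924 to 5477, 2982 of them lower and 2495 higher, with 0 after adjustment, and 14 muscle-restricted genes were called lower because Fhl1 joined. No other member's call changed under it. The median of the muscle-restricted genes was -0.91 without a filter, and without 1 array it ranged from -1.48 to -1.08, with 12 to 14 called. The median over all probes was 0.065 with array median scaling. Of the broadly expressed genes, 0 were called lower under normexp correction and the methods' t-test, 2 were called higher under the methods' t-test and with the mean over a gene's probes (Fhl2 and Srf), and without 1 array 0 to 1 were called in either direction. With the mean over probes 1 muscle-restricted gene, Ldb3, was called higher, at 0.66. Probes past adjustment numbered 3 under quantile normalization and median scaling, and 0 under normexp, the other 3 filters, the methods' t-test, the intensity trend and the block, and 0 to 3 without 1 array. Without 1 array the called probes numbered 2076 to 4048, the lower ones 1168 to 2795 (the highest without LSC GFP+ replicate 1). The count of probes with the mean over probes was not run.

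Uncalled members near 0 changed sign. Under quantile normalization Cnn2 was at -0.0014 and Mkl1 at 0.029, under median scaling Mkl1 at 0.057, under normexp Cspg4 at -0.035, and with the mean over probes Tpm1 at -0.26, Mkl2 at -0.067 and Lpp at 0.0047. Without 1 array Pgm5 ranged from -0.11 to 0.29, Smtn from -0.095 to 0.29, Ldb3 from -0.43 to 0.079, Cnn2 from -0.31 to 0.31, Cnn3 from -0.20 to 0.038, Tagln2 from -0.26 to 0.067, Tpm1 from -0.012 to 0.22, Mkl1 from -0.11 to 0.13 and Cspg4 from -0.055 to 0.087. The cause was not tested. Kcnmb1, Lmod1, Myocd, Pln and Ppp1r14a are limited by signals at or near background.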
